A study of Mus musculus with 2 samples.

Results

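Mir21a, Mir31, Mir193a, Mir365-1 and Mir365-2 are 5 of the 2202 miRNA genes counted in mouse hippocampus. They were chosen from their levels in these data, from how far they differed between the 2 libraries, and from their known ties to glia and tissue stress. Their levels and differences are therefore a description, with no test. The study sequenced small RNA (label size range under 30) from hippocampus of male B6CASTF1/J mice, the first-generation hybrid of C57BL/6J and CAST/EiJ, aged 14 days. It has 1 group of 2 biological replicates and no treated, mutant or control group. The labels name 3 males for each replicate, by different numbers, but 1 donor identifier for both. Whether the replicates shared animals is not settled by these labels. Animal and technical differences between the libraries cannot be told apart.

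A miRNA is cut from a hairpin precursor, and either arm of the hairpin (5p or 3p) can be loaded into Argonaute to repress mRNAs. Pairing rests mainly on the seed, bases 2 to 8 of the mature strand. In brain, miR-21 is best known for its induction in reactive astrocytes after injury, where AP-1 and STAT3 drive its gene, and miR-31 for its role in astrocyte specification. The miR-193 and miR-365 genes lie in a pair of duplicated loci, one of which is known for its part in brown fat cell differentiation.

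The sequences show which of these genes can be told apart by a short read. All 5 genes matched a RefSeq entry by symbol, as did Mir193b, the neighbour of Mir365-1. The arms below are written 5′ to 3′ from RefSeq (GRCm38.p6, the assembly also called mm10), with the seed in capitals.
mmu-miR-21a-5p: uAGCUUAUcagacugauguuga
mmu-miR-21c: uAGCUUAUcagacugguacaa
mmu-miR-31-5p: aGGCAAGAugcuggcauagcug
mmu-miR-193a-3p: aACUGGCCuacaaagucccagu
mmu-miR-193b-3p: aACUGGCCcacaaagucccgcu
mmu-miR-365-3p: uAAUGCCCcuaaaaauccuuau
mmu-miR-365-1-5p: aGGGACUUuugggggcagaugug
mmu-miR-365-2-5p: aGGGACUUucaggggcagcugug

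Neither arm of Mir31 shared its seed with another RefSeq mouse miRNA, so miR-31 formed a seed group of its own within that set. Among the RefSeq entries searched, miR-21a-5p shared its seed with miR-21c alone. Only 1032 of the 2202 counted genes had a RefSeq entry by symbol, so further seed partners could be missed. The mature strands of miR-21a-5p and miR-21c differed at 5 bases outside the seed, A16G, G18A, U19C, U20A and G21A (miR-21a base, position from the 5′ end, miR-21c base). Mir21b and Mir21c, the relatives of Mir21a by name, had 0 counts in both libraries, which allows up to 0.791 CPM in replicate 1 and 1.17 CPM in replicate 2, the level of 3 counts of the total, by counting error. CPM are counts per 1000000 counts on miRNA genes. miR-193a-3p and miR-193b-3p carried the same seed and differed at 3 of 22 bases, U9C, A20G and G21C (miR-193a base first).

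The miR-365 pair differed in kind from the others. miR-365-3p, the arm for which the family is named, has the same 22 bases at both loci, so a read of it could come from either. The 5p arms share the seed and differ at 3 of 23 bases, U10C, G11A and A19C (miR-365-1-5p base first). In the hairpins below, capitals mark the bases that lie in a stretch of 20 or more bases found in both genes.
Mir365-1, chr16:13453840-13453926, plus strand: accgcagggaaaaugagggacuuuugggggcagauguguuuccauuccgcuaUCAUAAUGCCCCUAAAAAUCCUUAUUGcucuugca
Mir365-2, chr11:79726400-79726511, plus strand: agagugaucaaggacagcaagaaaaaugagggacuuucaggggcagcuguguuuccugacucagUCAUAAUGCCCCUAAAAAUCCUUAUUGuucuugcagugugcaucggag

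The shared run of 27 bases covers the whole 3p arm and stops short of the 5p arm in both hairpins. Mir21a, Mir31, Mir193a and Mir193b shared no such stretch with another counted gene. Reads that mapped to several places were given to no gene, at 26.3% of reads in replicate 1 and 37.5% in replicate 2. How many of them were miR-365-3p is not given by the tables, so the Mir365-1 and Mir365-2 counts below do not measure the level of miR-365-3p. Over the whole table, 85 of 1087 genes with a shared stretch (7.82%) reached 2 CPM in each library, against 341 of 1115 without one (30.6%).

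**Figure D1:**
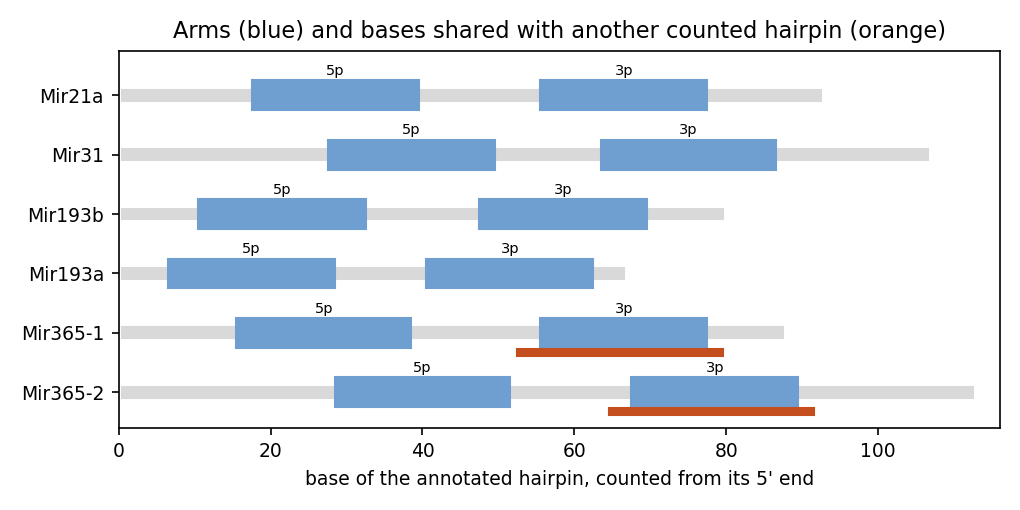
Each grey bar is an annotated hairpin, drawn to scale in bases from its 5′ end, with the 5p and 3p arms as blue boxes and bases in a stretch of 20 or more shared with another counted hairpin as an orange bar. Only Mir365-1 and Mir365-2 of the 6 genes drawn have an orange bar, 27 bases long, and it spans the 3p arm in both.

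In mm10 with GENCODE M21, Mir21a (ENSMUSG00000065455.1) spans 86584067 to 86584158 on the minus strand of chromosome 11. It lies in an exon of Vmp1, a gene of autophagosome formation, in sequence annotated as untranslated. Mir31 (ENSMUSG00000065408.1) spans 88910557 to 88910662 on the minus strand of chromosome 4, in an exon of the lincRNA AL805899.1. Mir193a (ENSMUSG00000065395.1) spans 79711969 to 79712034 on the plus strand of chromosome 11 and is intergenic. Mir365-2 (ENSMUSG00000065489.1) follows it on the same strand after 14365 bases and is intergenic too. Mir365-1 (ENSMUSG00000065449.1) on chromosome 16 lies 4238 bases after Mir193b, which spans 13449523 to 13449601. Both lie in an intron of Gm15738, an antisense gene on the other strand, and no other counted miRNA gene lay within 10 kb of a member on its strand.

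The libraries had 3793934 counts on miRNA genes in replicate 1 and 2554997 in replicate 2. Unmapped reads were 41.3% and 20.7%, and counts were 27.5% and 35.3% of all reads. Neuronal markers were present in both libraries, led by Mir139, Mir149 and Mir132, and all 18 of that list had a count in at least 1 library. The 3 Mir124a genes, the defining neuronal miRNA, had at most 12 counts each. The 5 listed muscle genes other than Mir206 were at 0 in both libraries. All of these low genes share a stretch of 20 bases with another counted gene, as the miR-365 pair does, so their low counts are uncertain. Levels are CPM, not divided by length, because reads cover the short mature product.

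Mir21a was the most abundant of the 5 genes and Mir31 came second. Mir21a had 5504 counts in replicate 1 and 852 in replicate 2, or 1451 CPM (95% exact Poisson interval 1413 to 1490) and 333 CPM (311 to 357). It ranked 94th of the 2202 genes in replicate 1 and 155th in replicate 2. These intervals hold counting error alone, because each is computed from the count of a single library. PCR copies of a molecule were counted as separate reads where no molecular identifier marks them. The intervals can then be too narrow even for counting error. The mean was 892 ± 790 CPM (SD, n = 2), between Mirlet7c-1 at 910 ± 281 CPM and Mir455 at 840 ± 563 CPM.

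Mir31 had 3936 counts in replicate 1 and 133 in replicate 2, or 1037 CPM (1005 to 1070) and 52.1 CPM (43.6 to 61.7). Its mean of 545 ± 697 CPM (SD, n = 2) has an SD above the mean, so it stands for neither library. Mir31 ranked 109th in replicate 1 and 237th in replicate 2. In both libraries Mir21a was above Mir31, by 1.40-fold (exact interval 1.34 to 1.46) and 6.41-fold (5.33 to 7.75), but their means differed by less than the SD of either gene.

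Mir193a, by contrast, was low and alike in the libraries. It had 42 and 30 counts, or 11.1 CPM (7.98 to 15.0) and 11.7 CPM (7.92 to 16.8), with a mean of 11.4 ± 0.475 CPM (SD, n = 2). Its seed partner Mir193b had 387 and 252 counts, or 102 and 98.6 CPM, with a mean of 100.3 ± 2.39 CPM. Mir193b thus had 9.21 times the counts of Mir193a in replicate 1 (exact interval 6.69 to 13.0) and 8.40 times in replicate 2 (5.74 to 12.7), so the chromosome 16 copy led by a like factor in each library. In replicate 2 Mir193b also stood above Mir31, while in replicate 1 it stood far below.

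Mir365-1 and Mir365-2 were at the edge of detection. Mir365-1 had 13 counts in replicate 1 and 3 in replicate 2, or 3.43 CPM (1.82 to 5.86) and 1.17 CPM (0.242 to 3.43). Mir365-2 had 3 and 7 counts, or 0.791 CPM (0.163 to 2.31) and 2.74 CPM (1.102 to 5.64). Their means were 2.30 ± 1.59 and 1.77 ± 1.38 CPM (SD, n = 2), and which of the pair was higher changed from one library to the other.

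The count of each miR-365 gene was below that of its miR-193 neighbour. Mir193b had 29.8 times the counts of Mir365-1 in replicate 1 (exact interval 17.2 to 56.4) and 84.0 times in replicate 2 (28.4 to 410.1). Mir193a had 14.0 times the counts of Mir365-2 in replicate 1 (4.47 to 70.6) and 4.29 times in replicate 2 (1.84 to 11.6). The identical 3p arm printed above lies in both miR-365 genes and in neither miR-193 gene, and its part in these ratios was not tested. Of the 5 genes, 3 (Mir21a, Mir31 and Mir193a) reached 2 CPM in each library, as did 19.3% of all miRNA genes (426 of 2202).

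**Figure D2:**
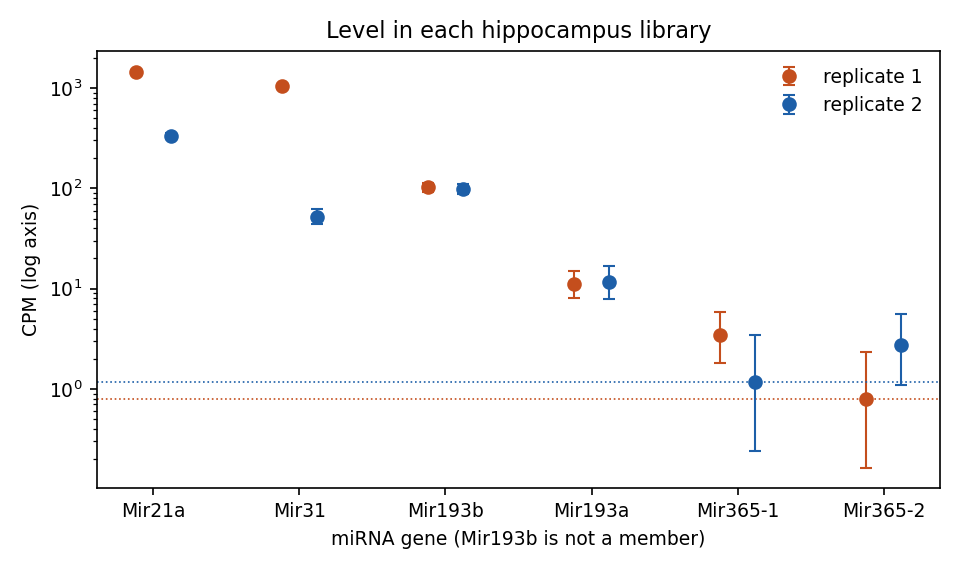
Points give the level of each gene in replicate 1 (orange) and replicate 2 (blue) in CPM on a log axis, bars the 95% exact Poisson interval of the count, and dotted lines the level of 3 counts in each library. Mir31 is at 1037 and 52.1 CPM and Mir21a at 1451 and 333 CPM, while the points of Mir193b and Mir193a lie level and those of Mir365-1 and Mir365-2 lie near the dotted lines.

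Between the libraries, Mir31 differed most and Mir21a second. Mir31 was 19.9-fold higher in replicate 1 (exact Clopper-Pearson interval 16.8 to 23.9), and Mir21a was 4.35-fold higher there (4.05 to 4.68). Mir193a had a ratio of 0.943 (0.576 to 1.56), and Mir193b one of 1.03 (0.880 to 1.22). Mir365-1 had a ratio of 2.92 (0.802 to 16.0), and Mir365-2 one of 0.289 (0.0482 to 1.26), both too thinly counted to give a direction. These ratios are CPM in replicate 1 over CPM in replicate 2.

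Of the 3 members with a mean of 10 CPM or more, 2 were over 2-fold apart, both higher in replicate 1. Over all 328 genes at that level, 14.3% were over 2-fold apart, 10.4% higher in replicate 1 (34 genes) and 3.96% higher in replicate 2 (13 genes). Both were over 4-fold apart, as were 4.27% of the 328 genes (14). Since the members were chosen partly by this difference, nothing is read from their share. The 2-fold limit was applied to log2(CPM + 0.5), where genes just over it included Mir26b at -1.001 and Mir3547 at 1.01, and genes just under it Mir140 at 0.99 and Mir744 at 0.99. With all reads in place of assigned counts as the denominator, the median log2 ratio of these genes moved to -0.36, and 21 genes were over 2-fold higher in replicate 1 and 31 in replicate 2.

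On that log2 scale Mir31 stood at 4.30, Mir21a at 2.12 and Mir193a at -0.08, against a median of the absolute log2 ratio of 0.42 over the 328 genes. Mir31 had the second largest absolute log2 ratio of the 328, after Mir301 at -4.61, and Mir21a the ninth. The coefficient of variation between the replicates beyond counting error was 0.378 in edgeR's common dispersion over all genes. The counting intervals of the Mir31 and Mir21a ratios were narrow, but these genes were chosen partly by this difference. Such intervals hold counting error alone, and 2 libraries of 1 group hold no further replicate to test the ratios against.

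Most genes of like mean level differed less than Mir31 and Mir21a. The ranges compared were 272 to 1090 CPM for Mir31 and 446 to 1784 CPM for Mir21a. In replicate 2 both members lay below their range, at 52.1 and 333 CPM, so the likeness holds for the mean alone. Among 60 other genes within 2-fold of the mean level of Mir31, 6 were over 2-fold higher in replicate 1 and 1 in replicate 2. Mir21a, itself a member, was among the 6. Their log2 ratios ran from -4.61, for Mir301, to 2.97, for Mir34c, so that Mir301 differed by more than Mir31, in the other direction. Among 60 other genes within 2-fold of the level of Mir21a, 7 were over 2-fold higher in replicate 1 and 0 in replicate 2. Of these genes, 2 had a log2 ratio above that of Mir21a, and the higher of them was Mir31, itself a member. Around Mir193a, 50 of 80 other genes had a higher log2 ratio than it did.

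**Figure D3:**
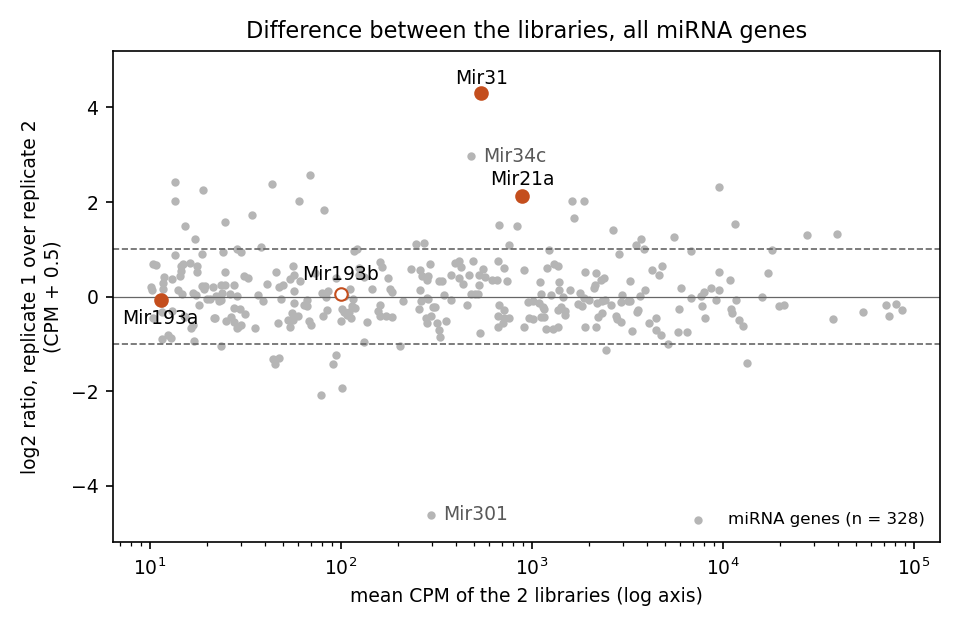
Each point is a miRNA gene with a mean of 10 CPM or more, with the mean CPM on a log x axis and the log2 ratio of replicate 1 over replicate 2 on the y axis; dashed lines mark 2-fold. Mir31 at 4.30 and Mir21a at 2.12 lie above the upper line (filled orange), and Mir193a (filled orange) and Mir193b (open circle) lie near 0.

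Over the 2 libraries, likeness was measured as the Euclidean distance of log2 CPM among detected genes. The genes nearest to Mir21a were Mir455, at a distance of 0.47, and Mir673, at 0.54. The nearest to Mir31 was Mir34c, a target of p53, at 1.10, and the next was Mir34a at 2.26, both farther than for Mir21a. The nearest to Mir193a were Gm23935 at 0.05 and Mir6900 at 0.17. With 2 libraries such a distance describes only a level and a ratio.

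Other miRNAs tied to stress were described from a list drawn up with some of their ratios known. Nothing is therefore read from its counts about the difference of Mir31 and Mir21a. Of 12 listed genes induced by stress, hypoxia or inflammation with a mean of 10 CPM or more, 7 were over 2-fold higher in replicate 1 and 0 in replicate 2, beside 10.4% and 3.96% of all such genes. They were Mir34c, Mir222, Mir132, Mir146b, Mir22, Mir34a and Mir221, of which Mir146b alone shares a stretch with another counted gene. The list's median log2 ratio was 1.11, against 0.00 for all such genes. With all reads as the denominator the count was 4 of 12.

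Within that list, Mir34c had 857 and 109 CPM in replicates 1 and 2. Mir222, which with Mir221 restrains the cell cycle inhibitor p27, had 2621 and 649 CPM. Mir132, which CREB induces upon neuronal activity, had 17266 and 5947 CPM. By contrast Mir210, the main hypoxia-induced miRNA, had 118 and 106 CPM, and Mir155, induced in inflammation, had 37.7 and 56.0 CPM. The listed stress genes thus did not all differ alike, and the list was drawn up with some of these ratios known.

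Most other astrocyte and reactive glia genes were within 2-fold between the libraries. Of 14 listed genes, 2 were over 2-fold higher in replicate 1 (Mir29b-1 and Mir146b), 0 in replicate 2 and 12 within 2-fold, with a median log2 ratio of 0.20. Over all 328 genes the share higher in replicate 1 was 10.4%, near that of the list. Mir23a, the highest of the list by mean, had 3446 and 6053 CPM, and Mir29a, a glia-enriched miRNA that rises as the brain matures, had 1282 and 1254 CPM. The list without the 5 members summed to 7745 CPM in replicate 1 and 10785 CPM in replicate 2, lower in replicate 1. Of the 14, 10 share a stretch of 20 bases with another counted gene, among them Mir23a, Mir29b-1 and Mir146b, so their counts are uncertain, while Mir29a and Mir193b do not. The 5 members summed to 2503 and 401 CPM, of which Mir21a and Mir31 made 99.4% and 96.1%.

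Lists of other cell types stood as follows beside these values. The oligodendrocyte list summed to 4060 and 1247 CPM, with 2 of 3 genes over 2-fold higher in replicate 1, among them Mir219a-2 at 3014 and 743 CPM, uncertain for a shared stretch, and Mir338, which has none, at 1029 and 485 CPM. The choroid plexus and ciliated epithelium list summed to 1980 and 931 CPM, with 1 of 4 genes over 2-fold higher in replicate 1, which was Mir34c, while Mir204, its highest by the mean of the libraries, had 743 and 581 CPM. In the meningeal and mesenchymal list, which summed to 106 and 29.0 CPM, Mir214 was the 1 gene at 10 CPM or more, with 97.5 and 23.5 CPM, and Mir199a-1, which has a shared stretch, was at 0 in both libraries. The sums of these 3 lists were 3.25-fold, 2.13-fold and 3.68-fold higher in replicate 1, in the order given. The choroid plexus sum differed mainly through Mir34c, also a listed stress gene, and the mesenchymal sum mainly through Mir214. The endothelial and mural list, given below, was 1.29-fold higher in replicate 1. The part of any list in the difference of Mir31 and Mir21a was not tested.

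Microglia and myeloid genes summed to 1781 and 1696 CPM, with 0 of 4 over 2-fold apart and Mir150 highest by mean at 981 and 1047 CPM. The endothelial and mural list summed to 14332 and 11076 CPM, with 0 of 3 over 2-fold apart and Mir126a highest at 11308 and 7829 CPM. Epithelium and skin genes, listed because miR-31 is abundant in keratinocytes, summed to 109 and 104 CPM. Of them 1 of 3 was over 2-fold higher in replicate 1, Mir200c at 24.5 and 10.2 CPM, while Mir203, the skin miRNA and highest of the list by mean, had 60.1 and 68.1 CPM. The erythroid list was higher in replicate 2, at 75.4 and 192 CPM, with Mir451a at 41.9 and 162 CPM. Neuron genes summed to 134124 and 127130 CPM, with 1 of 15 over 2-fold higher in each direction, Mir132 in replicate 1 and Mir153 in replicate 2.

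**Figure D4:**
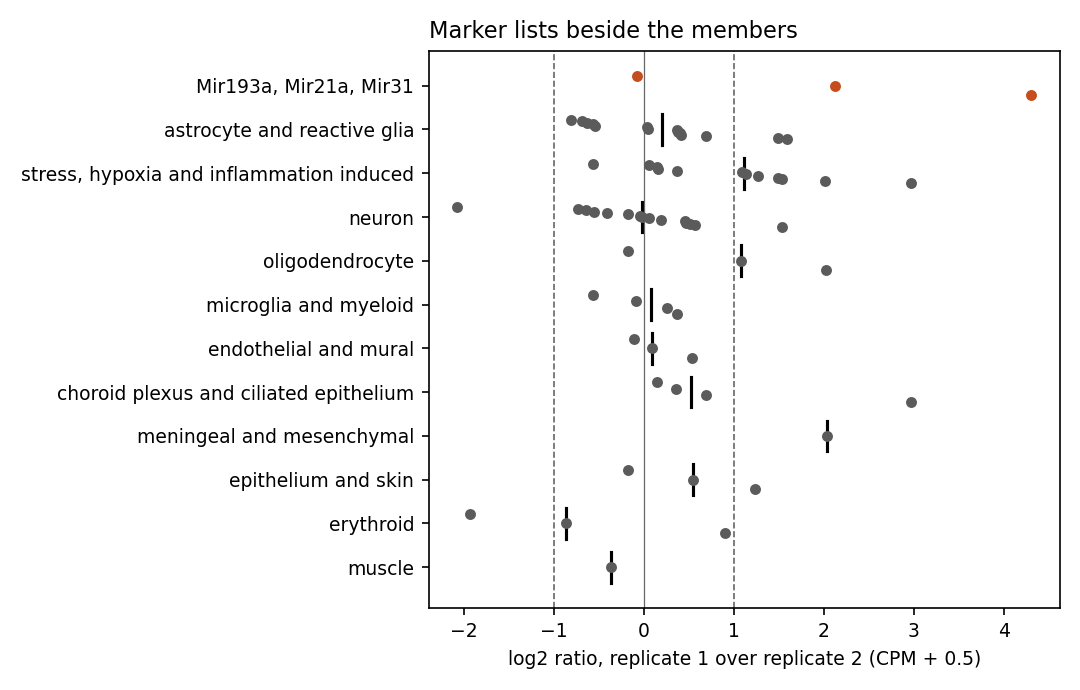
Each point is a gene with a mean of 10 CPM or more, placed by its log2 ratio of replicate 1 over replicate 2, in rows by list; short vertical bars are list medians and dashed lines mark 2-fold. The stress list has a median of 1.11 and the astrocyte and reactive glia list one of 0.20, while Mir193a, Mir21a and Mir31 (orange) spread from -0.08 to 4.30.

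The tissue was sampled in bulk, so a lower share of a cell type and less of a miRNA per cell cannot be told apart. The hairpin GC content was 45.7% for Mir21a, 50.0% for Mir31 and 54.5% for Mir193a, against a median of 51.5% over the 328 genes. Across these genes, hairpin GC content and the log2 ratio had a Spearman correlation of 0.129, a description over genes that share both libraries. The opposite strand of the members held 1 count in all, at Mir21a in replicate 1, so nearly all of their counts came from the miRNA strand.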

How the data were processed

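Small RNA of 2 hippocampus libraries was analysed from 1 deposited table per library. The tables as deposited hold raw counts per miRNA gene on mm10 with GENCODE M21, per the accompanying text. For the aligner, the counting tool and the filters, a name or version is not given in the sources used here. Of 3 count columns without a header, the larger stranded one was taken as the gene's strand. The 4 rows of reads given to no gene (72.5% and 64.7% of reads) stayed out of library totals. CPM were counts per 1000000 assigned counts, and ratios were log2(CPM + 0.5). Precision came from exact 95% Poisson and Clopper-Pearson intervals. The fold calls were checked on counts drawn with counting error alone and large set changes, which leaves out the spread between replicates. edgeR's quasi-likelihood test needs a contrast with residual replicates, so no test was run.

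The members and lists were chosen with earlier results of these data known. The text names the members, genes within 10 kb or with a shared seed, the 2 nearest detected genes, neighbours in rank or at the fold limit, and each list's highest gene and those over 4-fold apart. Other genes were named after their values were seen. Hairpins of all 2202 genes were searched on both strands for shared stretches of 20 bases. Mir486b, listed as erythroid, matched no counted gene. Alternatives were other scalings, denominators, pseudocounts, filters, fold limits and columns. Tools were R 4.3.3, edgeR 4.0.16, DESeq2 1.42.0 (size factors), matplotlib 3.10.9, scipy 1.17.1, pandas 2.3.3 and numpy 2.4.6 in Python 3.11.15.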

Additional observations from a re-analysis of the deposited data

How the results depend on the processing

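Of 154 values under an alternative, 136 were scored as unchanged and 18 as moved. None changed the direction of a member over 2-fold apart. Only levels and ratios of members were judged by the spread or counting interval of the value reported. Counts of genes and bases were judged by relative change, so 500 genes detected at 1 CPM scored as unchanged from 426. Levels without replicate 1 or replicate 2 could not score as moved, because either library always lies within the SD of the mean of 2. The share scored as unchanged is therefore no measure of stability. With all reads as the denominator the log2 ratio was 1.76 for Mir21a and 3.92 for Mir31, and means per 1000000 reads were 3.59 for Mir193a and 0.679 for Mir365-1. The column that ignores strand held the same Mir193a counts over smaller totals, which gave 12.1 CPM. Without replicate 1 or replicate 2, the level ranged from 333 to 1451 CPM for Mir21a, 52.1 to 1037 for Mir31, 11.1 to 11.7 for Mir193a, 1.17 to 3.43 for Mir365-1 and 0.791 to 2.74 for Mir365-2, so replicate 1 decides the means of Mir21a and Mir31. A ratio needs both libraries and could not be given without one.

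Genes over 2-fold apart numbered 92 at a mean of 2 CPM or more, 27 at 100 CPM or more and 200 with no filter. At fold limits of 1.5 and 4 they numbered 107 and 14. With all reads as the denominator, 4 stress genes, 1 oligodendrocyte gene and 0 epithelium and skin genes were over 2-fold higher in replicate 1, and 2 glial, 3 neuron and 2 erythroid genes in replicate 2. At a mean of 2 CPM or more, 1 microglia and myeloid gene was over 2-fold higher in replicate 1 and 1 epithelium and skin gene in replicate 2. These follow from the filter or denominator itself. At 1 CPM, 4 members were detected. The list counts under other scalings and the stretch of 18 bases, which gave the same 27 bases, were chosen after seeing the data. No paired analysis was possible because there is 1 group. Of the members, depth limits Mir365-1 and Mir365-2 most, since 3 counts are worth 0.791 and 1.17 CPM. More depth would not tell apart reads of the 3p arm that these genes share.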
